A study of Oncorhynchus mykiss with 8 samples.

Results

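The genes described here are 5 lipid genes of rainbow trout: the delta-5 fatty acid desaturase (fadsd5), the delta-6 fatty acid desaturase (fadsd6), the fatty acid sensors pparg and pparb2a, and sr-bi, the scavenger receptor that binds high-density lipoprotein. They were chosen by gene symbol in the array's annotation, in any letter case. Each symbol had 1 probe, so there were 5 probes among 43,603, and 5 of the 174 symbols of the annotation, of which 93 were no mere locus placeholders. All 5 had a value on all 8 arrays. The fish were Lyndon strain trout fed without restriction, all offspring of neomales, which are genetic females turned into functional males. Liver and muscle of small fish were compared with the same tissue of large fish on 2-colour arrays, and each sample was mRNA pooled from 5 fish. There were 2 pairs of pools per tissue, numbered 1 and 2, and each pair was hybridised on 2 arrays with the dyes exchanged, once with large fish in Alexa Fluor 555 (the 555 arrays) and once with large fish in Alexa Fluor 647 (the 647 arrays). That both arrays of a number hold the same pools was read from the array titles and is not stated outright. The age, the weights behind small and large, and whether liver and muscle pools of 1 number came from the same fish are not given in the sources used here.

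Desaturases insert double bonds into fatty acids. The delta-6 enzyme carries out the first and usually limiting step by which trout turn plant-type fatty acids into long-chain omega-3 and omega-6 fatty acids, and the delta-5 enzyme acts later in the same route, which in fish is most active in liver and intestine. PPARs are nuclear receptors that bind fatty acids and switch on genes of fat storage (the gamma form) or fat burning (the beta form), as known mainly from mammals. SR-BI takes cholesterol esters from high-density lipoprotein into the cell, in mammals above all in liver and steroid-making glands.

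Every value is a log2 ratio of the 2 channels of 1 array. Which channel is the numerator is not stated, nor whether the authors had already turned the arrays with exchanged dyes, so the fish size with the higher transcript level cannot be named for any value. Taken out of the log, 100% of the values with a size between 0.1 and 0.5 were ratios with 3 decimals on every array, while with the sign turned first this held for 7.61 to 11.5%. These limits were narrowed after sizes of 0.5 to 2 had been tried, for which the share was 86.8 to 95.5% per array, and 9.23 to 10.2% with the sign turned. All misses in that wider check were among positive values (74.6 to 90.1% on 3 decimals, against 100% of the negative ones), where the rounding of the log values can exceed the tolerance of 0.05 thousandths. The log values were therefore not turned after that rounding on any array, but the numerator could have been chosen before it. Both readings are given for the 5 genes, but at most 1 of them compares large with small fish. If the numerator is the same dye on every array, the turned reading does so, and a dye effect that is equal on both arrays of a pair cancels in it. The unchanged reading then holds what does not follow fish size, such as a dye effect. If the numerator is the same fish size on every array, it is the other way round. In the turned reading the values of the 647 arrays were multiplied by -1 before a pair was averaged, so that a positive pair mean lies on the side of positive deposited values of the 555 arrays. In the unchanged reading no sign was changed. Over all probes the standard deviation of the values of an array was 0.55 to 0.92 for liver and 0.32 to 0.33 for muscle. The medians of the liver arrays ran from -0.08 to 0.11, those of the muscle arrays from -0.0072 to 0.013. In liver the medians were positive on the 555 arrays and negative on the 647 arrays, so that turned liver values of a typical probe were shifted to the positive side. The dark corner spots, which carry no trout probe, were also positive on all turned liver arrays, with values given under sr-bi below. What this means for either reading was not tested. A ratio holds no level, so the identity of the tissues could not be checked against the abundance of their markers. In such tissue samples fewer cells of a type and less RNA per cell cannot be told apart.

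The delta-6 desaturase fadsd6 had the largest liver values among the 5 genes. In liver pair 1 its deposited value was -1.48 on the 555 array and 0.75 on the 647 array. In liver pair 2 it was -1.05 and -1.95 in that order. The first pair thus changed sign with the dyes and the second did not. In muscle fadsd6 was -0.95 and -0.10 in pair 1 and -0.75 and -0.56 in pair 2, so all 4 muscle arrays were negative as deposited. The value of -1.95 was lower than that of all but 1.83% of the probes on its array.

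The delta-5 desaturase fadsd5 had the widest spread in muscle. Its liver values were -1.18 on the 555 array and 0.57 on the 647 array for pair 1, against -0.62 and -0.58 for pair 2. In liver fadsd5, like fadsd6, thus changed sign with the dyes in pair 1 and kept it in pair 2. Its muscle values were -0.36 and 0.92 in pair 1 and -1.70 and -0.81 in pair 2. The value of -1.70 was among the lowest of its array, where 0.296% of the probes had a lower one, and the value of 0.92 was above 99.1% of the probes on its own array.

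Both desaturases were negative on all 4 of the 555 arrays, which carry the dyes the same way in both tissues, so this holds under either reading. The mean over these arrays, 2 of liver and 2 of muscle, was -1.06 ± 0.31 (SD, n = 4 arrays) for fadsd6 and -0.97 ± 0.60 for fadsd5. The 4 arrays are not replicates of 1 condition, so mean and SD only describe them. Fish size and dye cannot be told apart on arrays of 1 dye orientation. Of 37,539 probes measured on these 4 arrays 9.74% were negative on all of them, as 2 of the 5 genes were. The pattern was chosen after the values were seen. The value of fadsd6 closest to 0 was -0.75, and 20 probes (0.0533%) had all 4 values at or below it, whereas 389 probes (1.04%) had all 4 at or below the -0.36 of fadsd5. On the 647 arrays neither desaturase kept 1 sign. The 2 desaturases had the same sign on 7 of 8 arrays, the exception being the 647 array of muscle pair 1. They were measured on the same arrays and RNA, and 7.28% of all probes with 8 values shared as many signs with fadsd5. With the 555 arrays fitted alone in limma, where a dye effect is not averaged out, the adjusted p of fadsd6 was 0.104 in liver and 0.798 in muscle, and those of fadsd5 were 0.226 and 0.824.

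**Figure D1:**
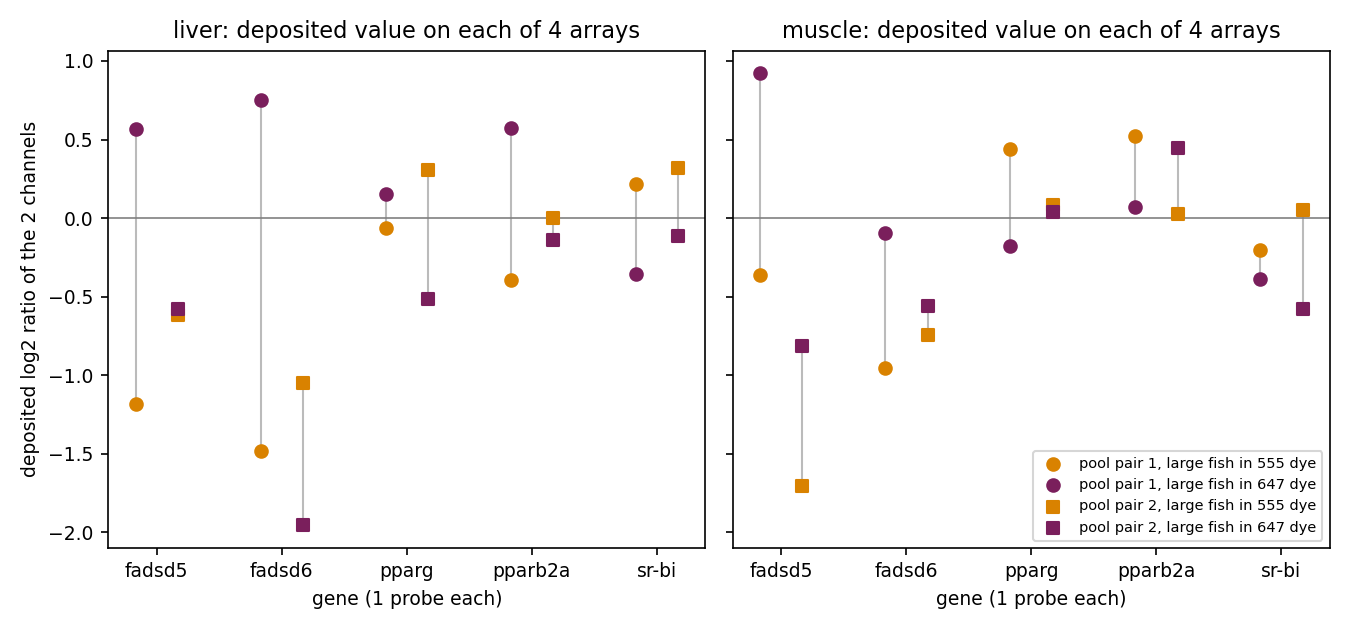
Deposited log2 ratio (vertical axis) of each of the 5 genes (horizontal axis) on the 4 liver arrays (left) and the 4 muscle arrays (right), with circles for pool pair 1, squares for pool pair 2, orange for the 555 arrays, purple for the 647 arrays, and a grey line joining the 2 arrays of a pair. The orange points of both desaturases lie below 0 in both tissues, and the values of fadsd6 in liver run from -1.95 to 0.75.

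The 2 arrays of a pair can be split into a turned pair mean, which is the part that changes sign with the dyes, and an unchanged pair mean, which is the part that does not. In liver pair 1 the turned part was larger for all 5 genes, as it was for 65.0% of all probes. For fadsd6 the turned part was -1.12 and the unchanged part -0.36, and for fadsd5 they were -0.87 and -0.31. Liver pair 2 gave the opposite order for both desaturases. Its turned part was 0.45 for fadsd6 and -0.02 for fadsd5, and its unchanged part was -1.50 and -0.60. Of all probes 53.0% had the larger turned part in liver pair 2, as had 3 of the 5 genes. In muscle fadsd5 was again split between the pairs, with a turned part of -0.64 and an unchanged part of 0.28 in pair 1, and -0.45 and -1.26 in pair 2. The unchanged part of fadsd6 in muscle was the larger one in both pairs, though by little in pair 1. It was -0.53 in pair 1 and -0.65 in pair 2, against turned parts of -0.43 and -0.09. Of all probes 53.4% had the larger turned part in muscle pair 1 and 48.5% in muscle pair 2, as had 2 and 1 of the 5 genes. Thus for fadsd5 the turned parts lay closer together in muscle and the unchanged parts closer together in liver, while for fadsd6 the 2 liver pairs differed by over 1 log2 unit in both readings.

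**Figure D2:**
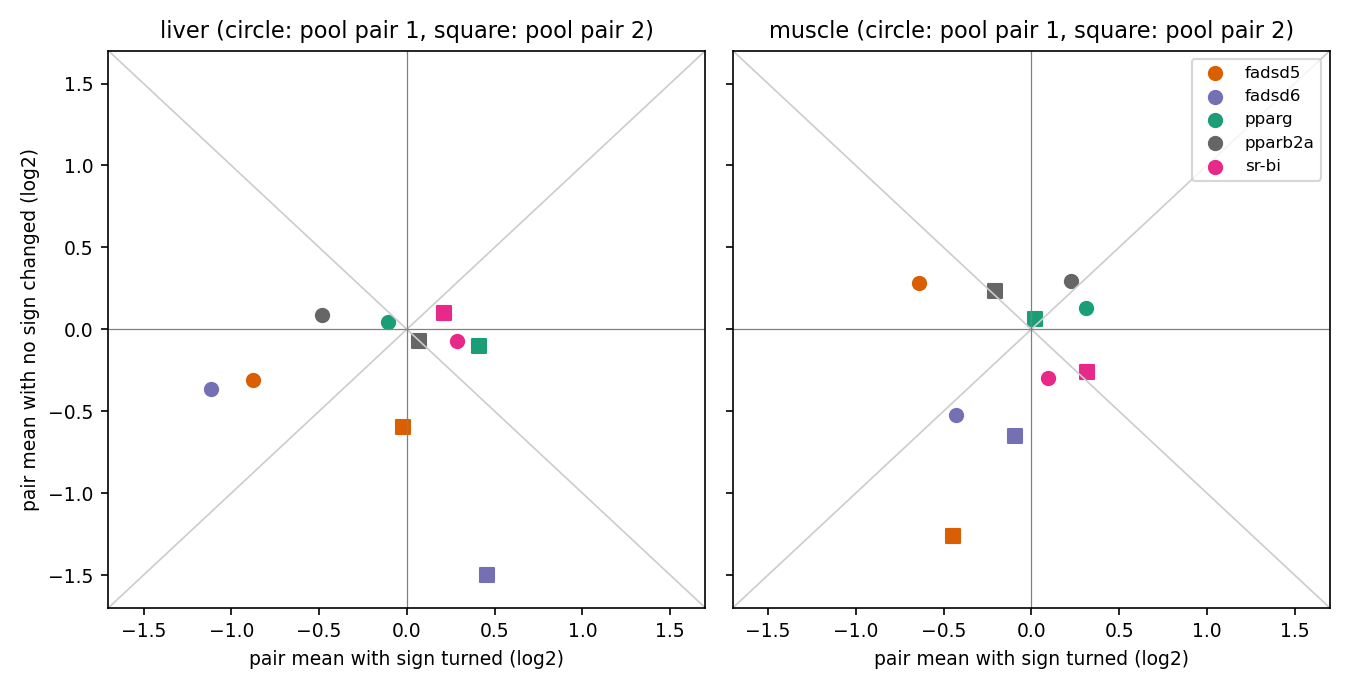
Turned pair mean (horizontal axis, log2) against unchanged pair mean (vertical axis, log2) for each gene and pool pair in liver (left) and muscle (right), with diagonals where both parts have the same size. In liver the desaturases of pair 1 lie to the left (turned part -0.87 and -1.12) and those of pair 2 below (unchanged part -0.60 and -1.50), while the other 3 genes lie near the centre.

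The first question was whether liver ratios of large and small fish differed from 0 for these genes. In the turned reading fadsd5 had a liver mean of -0.45 ± 0.60 (SD over 2 pool pairs), a 1.36-fold ratio, and that of fadsd6 was -0.33 ± 1.11, a 1.26-fold ratio. The SD of both exceeded the mean. Their 95% intervals in limma ran from -1.08 to 0.18 and from -1.43 to 0.76. In the unchanged reading the liver mean was -0.45 ± 0.21 for fadsd5 and -0.93 ± 0.80 for fadsd6, a 1.91-fold ratio whose interval ran from -1.72 to -0.14. The adjusted p over all probes in limma was 0.330 for fadsd5 and 0.636 for fadsd6 in the turned reading, and 0.675 and 0.473 in the unchanged one. Of the 5 genes 0 passed an adjusted p of 0.05 in liver in either reading, and 0% of 36,053 probes did. At an unadjusted p under 0.05 in limma 20.4% of the liver probes lay in the turned reading and 9.97% in the unchanged one, against 0 and 1 of the 5 genes, the latter being fadsd6 with 0.0304. These fits pool the spread of liver with that of muscle. Fitting liver alone in limma left 2646 of 36,053 probes under an unadjusted p of 0.05 when turned and 1531 when unchanged. In the shared fit 7346 and 3596 probes lay there. With liver fitted alone in limma, the unchanged interval of fadsd6 ran from -2.02 to 0.16 and included 0, with an unadjusted p of 0.0728. That of fadsd5 became narrower, from -0.93 to 0.03, with an unadjusted p of 0.0572. Both then had an adjusted p of 0.840.

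The turned liver values of both desaturases rested on 1 pool pair. Without liver pair 2 they equal the turned parts of pair 1 (-0.87 for fadsd5 and -1.12 for fadsd6), and limma then gave an adjusted p of 0.0104 and 0.00817. In that fit 18.8% of all liver probes passed, because the lone liver pair is assumed to vary as little as muscle does. Without liver pair 1 the values were -0.02 and 0.45, with an adjusted p of 0.929 and 0.110, while 17.4% of the probes passed.

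In muscle the turned mean of fadsd5 was -0.54 ± 0.14 (SD over 2 pool pairs), a 1.46-fold ratio with an interval from -1.17 to 0.09, and 1.76% of the muscle probes had a mean as large in size. Its unchanged mean was -0.49 ± 1.09, so the spread between pairs was small beside the mean in the turned reading only. For fadsd5 in muscle the 555 arrays alone gave a turned mean of -1.03 and the 647 arrays alone one of -0.054. The latter averages 2 values of opposite sign, -0.92 in pair 1 and 0.81 in pair 2 when turned. In pair 2 the turned values of the 2 arrays were -1.70 and 0.81, a disagreement that the SD over pool pairs does not show. For fadsd6 the spread between pairs was small beside the mean in the unchanged reading only. Its turned muscle mean was -0.26 ± 0.24 and its unchanged mean -0.59 ± 0.09, a 1.50-fold ratio with an interval from -1.38 to 0.20, and 0.814% of the muscle probes had an unchanged mean as large in size. Both desaturases had an adjusted p of 1 in muscle in limma in both readings. Of the 5 genes and of 41,652 muscle probes, 0% passed in either reading, while 4.53% of the probes had an unadjusted p under 0.05 in the turned reading and 1.63% in the unchanged one, against 0 and 1 of the 5 genes. The shared fit also includes the spread in liver. Fitting muscle alone narrowed the intervals of the turned mean of fadsd5 and the unchanged mean of fadsd6. That of the unchanged mean of fadsd5 became slightly wider, from -1.62 to 0.64 against -1.55 to 0.57 in the shared fit. With muscle fitted alone, the turned mean of fadsd5 had an interval from -0.78 to -0.31, an unadjusted p of 0.00155 and an adjusted p of 0.151, where 12.1% of the probes had an unadjusted p under 0.05. The unchanged mean of fadsd6 then had an unadjusted p of 0.00328 and an adjusted p of 1, where 2.97% of the probes and 3 of the 5 genes (fadsd6, pparb2a and sr-bi) lay under 0.05.

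**Figure D3:**
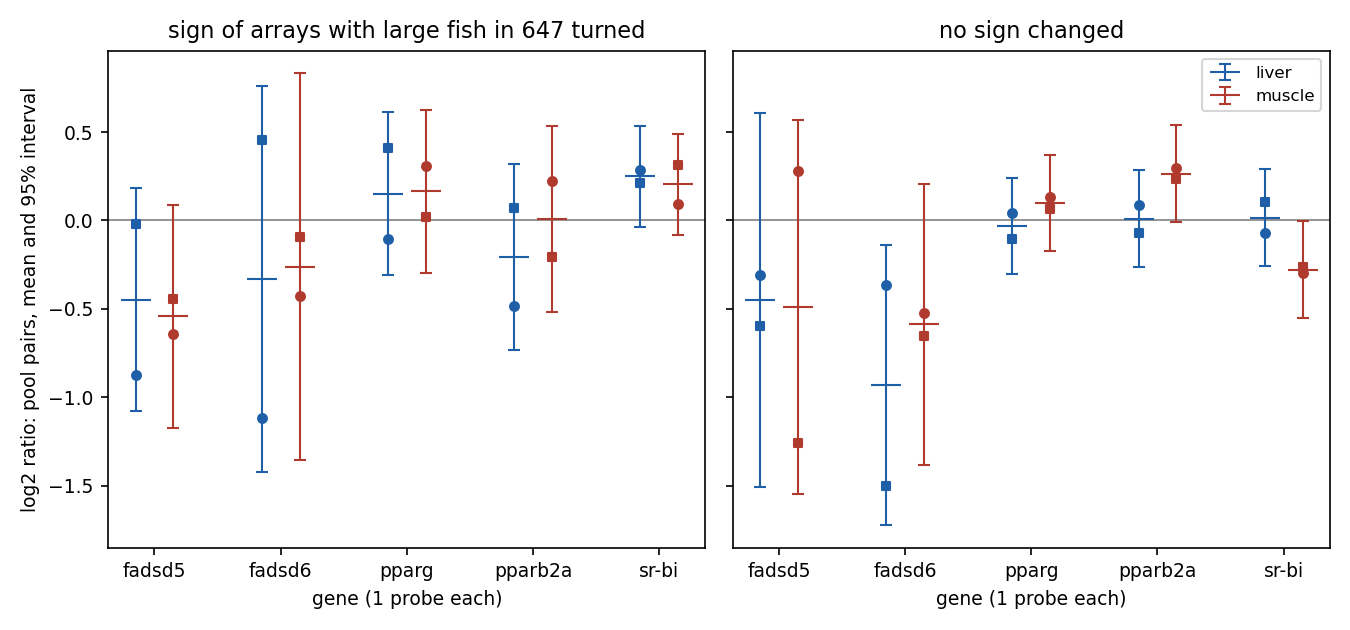
Mean log2 ratio with its 95% interval in limma (horizontal tick and bars) and the 2 pool pairs behind it (circle for pair 1, square for pair 2) for each gene in liver (blue) and muscle (red), with the sign of the 647 arrays turned (left) and with no sign changed (right). The pairs of fadsd6 in liver lie on both sides of 0 when turned (-1.12 and 0.45), and the interval excludes 0 in the right panel only, for fadsd6 in liver (-1.72 to -0.14) and sr-bi in muscle (-0.55 to -0.0036).

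The tissue means of the fatty acid sensors were closer to 0 than those of the desaturases in both tissues and readings, though not every single value was. For pparg, which in mammals drives the formation of fat cells, the deposited liver values were -0.06 on the 555 array and 0.15 on the 647 array for pair 1, and 0.30 and -0.51 for pair 2. Both liver pairs of pparg changed sign with the dyes, in opposite directions. Its muscle values were 0.44 and -0.18 in pair 1 and 0.09 and 0.04 in pair 2. The turned means of pparg were 0.15 ± 0.37 (SD over 2 pool pairs) in liver and 0.17 ± 0.20 in muscle, and the unchanged means were -0.03 ± 0.10 and 0.10 ± 0.05. No mean of pparg exceeded its SD in liver, and 62.0% of the liver probes had a turned mean as large in size. Its adjusted p in limma was 0.611 and 0.922 in liver and 1 in muscle.

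For pparb2a, a beta form of the receptor, the liver values of pair 1 were -0.39 on the 555 array and 0.57 on the 647 array, while those of pair 2 were 0.0029 and -0.14. In muscle pparb2a was positive on all 4 arrays as deposited, with 0.52 and 0.07 in pair 1 and 0.03 and 0.44 in pair 2. The larger value thus lay on the 555 array in pair 1 and on the 647 array in pair 2. The unchanged muscle mean of pparb2a was 0.26 ± 0.04 (SD over 2 pool pairs), a 1.20-fold ratio with an interval from -0.0087 to 0.54, an unadjusted p of 0.0549 and an adjusted p of 1 in limma. Its turned muscle mean was 0.0087 ± 0.31. In liver its turned mean was -0.21 ± 0.39 and its unchanged mean 0.0099 ± 0.11, with an adjusted p of 0.546 and 0.976. Of the muscle probes 10.6% had 1 sign on all 4 arrays as deposited, as had 2 of the 5 genes. These were fadsd6, negative like 4.99% of the probes, and pparb2a, positive like 5.57%. Turned, 17.2% of the muscle probes had 1 sign and 0 of the 5 genes did. The 2 receptors had the same sign on 7 of 8 arrays, the exception being the 647 array of muscle pair 1, and 2.31% of all probes with 8 values shared as many signs with pparg. On the 555 array of liver pair 2 this rests on the 0.0029 of pparb2a. With that array centred on its median pparb2a had -0.08 and pparg 0.22. Apart from the 2 desaturases, all other pairings of the 5 genes shared 3 or 4 signs.

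The lipoprotein receptor sr-bi changed sign with the dyes in both liver pairs in the same direction. Its liver values were 0.22 on the 555 array and -0.35 on the 647 array for pair 1, and 0.32 and -0.11 for pair 2. Turned, all 4 liver values of sr-bi were positive, and their mean was 0.25 ± 0.05 (SD over 2 pool pairs), a 1.19-fold ratio. The interval ran from -0.04 to 0.54 and the adjusted p in limma was 0.273. Of the liver probes 26.2% had 1 sign on all 4 turned arrays and 17.7% were positive on all 4, against 1 of the 5 genes for both. The dark corner spots, which carry no trout probe, were also positive on all 4 turned liver arrays. Their values were 0.76, 1.26, 0.71 and 0.12, in the order 555 and 647 of pair 1, then of pair 2. On the turned muscle arrays they were 0.32, 0.48, 0.52 and -0.58 in that order. Another control spot, (-)3xSLv1, had no value on the 555 array of liver pair 1. Turned, it had 1.66, 0.92 and 2.81 on the other liver arrays and -0.04 to 0.22 in muscle. The part of such spots in the values of sr-bi and the other genes was not tested. With every array centred on its median the turned liver mean of sr-bi was 0.17, with an adjusted p of 0.411.

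In muscle the sr-bi values were -0.20 and -0.39 in pair 1 and 0.05 and -0.58 in pair 2. The first muscle pair thus kept its sign, and the second changed it with the dyes in the same direction as both liver pairs. All 4 of the 647 arrays were negative for sr-bi, as they were for 9.60% of 38,768 probes. The unchanged muscle mean of sr-bi was -0.28 ± 0.03 (SD over 2 pool pairs), a 1.21-fold ratio with an interval from -0.55 to -0.0036, an unadjusted p of 0.0481 and an adjusted p of 1 in limma. Turned, the muscle mean was 0.20 ± 0.16, of the other sign. The sign of sr-bi in muscle thus rests on the reading, and in liver its unchanged mean was 0.02 ± 0.12. As deposited, 9.61% of the liver probes and 0 of the 5 genes had 1 sign on all 4 liver arrays.

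The second question was whether the ratio differed between the tissues. In the turned reading the liver mean minus the muscle mean was 0.10 for fadsd5, -0.07 for fadsd6, -0.02 for pparg, -0.21 for pparb2a and 0.05 for sr-bi. The interval of fadsd6 was the widest of the 5, from -1.62 to 1.48, and that of sr-bi the narrowest, from -0.36 to 0.45. The adjusted p in limma lay between 0.776 for pparb2a and 0.985 for pparg. In the unchanged reading the differences were 0.04, -0.34, -0.13, -0.26 and 0.30 in the same gene order, and the adjusted p lay between 0.842 and 0.993. Of the 5 genes 0 passed in either reading, as did 0% of 34,757 probes, and 8.97% and 4.94% of the probes had an unadjusted p under 0.05, against 0 of the 5 genes in both. The liver and muscle arrays of each of the 5 genes overlapped in both readings, whereas 7.91% of the probes turned and 2.74% unchanged had none. In the unchanged reading the interval of fadsd5 was the widest, from -1.46 to 1.53, and that of fadsd6 ran from -1.46 to 0.78. The intervals thus allow tissue differences of over 1 log2 unit for fadsd6 in both readings and for fadsd5 in the unchanged one.

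**Figure D4:**
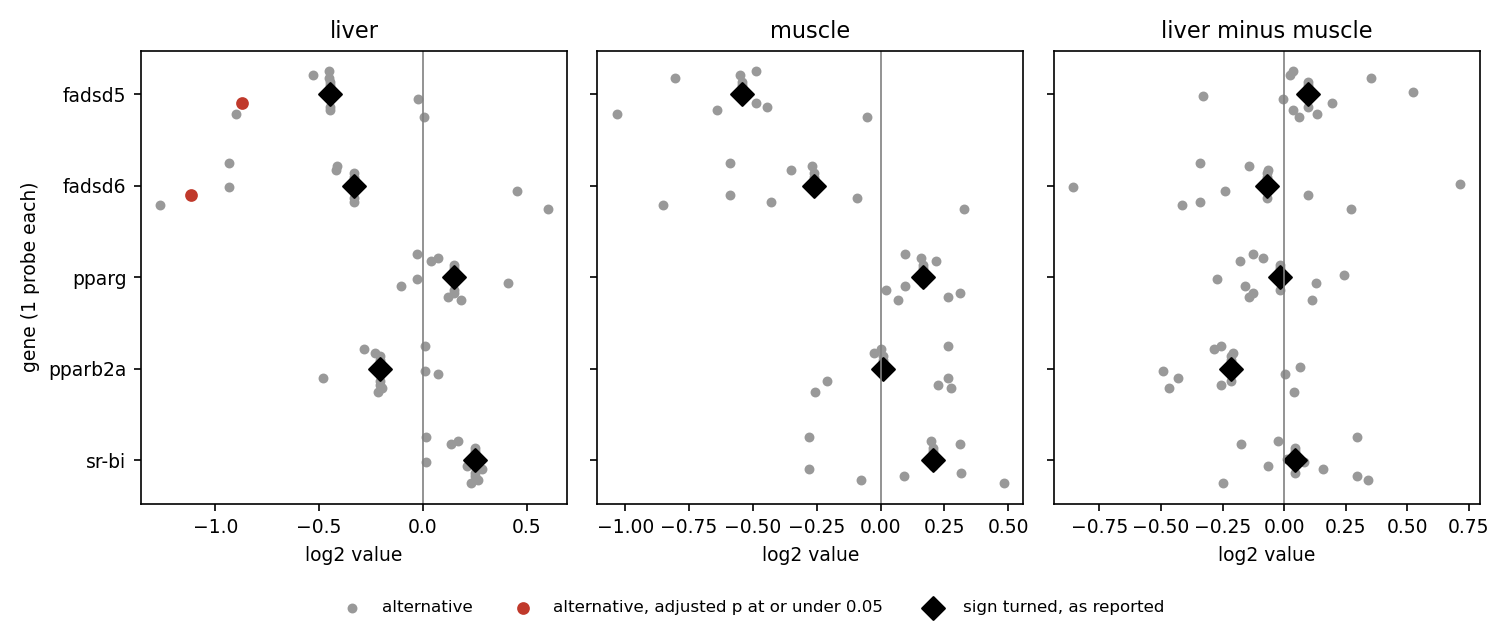
Log2 value of each gene in liver, in muscle and for liver minus muscle (horizontal axes, each with its own range) with the sign turned as reported (black diamond) and under each alternative processing (grey, or red where the adjusted p in limma was at or under 0.05). The red points are the liver values of fadsd5 and fadsd6 without liver pair 2 (-0.87 and -1.12).

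The likeness of other named probes was measured as the root mean square difference over the 8 deposited values, which is the same under both readings, among 97 probes with a symbol and 8 values. The probes closest to fadsd5 were one of the alpha globin gene hba (0.44), albumin alb1 (0.53) and antithrombin (0.54), against a median of 0.96, and fadsd6 came at place 17 (0.76). Closest to fadsd6 were probes of gdh2 (0.54), hsp90b (0.57) and the class I subunit gene b2m (0.60), against a median of 1.12, with fadsd5 at place 10. Closest to pparg were ifna2, slc6a6 and ifng (0.25 to 0.26, against a median of 0.50), and pparb2a came at place 11 (0.31). Closest to pparb2a were probes of sod1, tapbp and vdr0 (0.24 to 0.28, against a median of 0.52), with pparg at place 4. Closest to sr-bi were fxyd7, fxyd5b and a probe of fxyd12a (0.21 to 0.25, against a median of 0.58). The measure is also small between probes that merely have values near 0, so a low value need not mean a shared pattern.

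Probes of plasma proteins, which liver secretes, had the signs of fadsd5 in both muscle pairs in both readings. The medians of the red blood cell probes below did so too. Of 10 listed plasma protein symbols 3 had probes (alb1, antithrombin and trf), 5 probes in all. Probes of alb1 and antithrombin were already among the 3 named probes closest to fadsd5 over these same values. The shared signs are therefore no separate result, and the share of all probes with such signs was not counted. Their median unchanged muscle value was 0.36 in pair 1, with 5 of 5 positive, and -0.93 in pair 2, with 0 of 5 positive, beside 0.28 and -1.26 for fadsd5 and -0.53 and -0.65 for fadsd6. Their turned muscle medians were -0.18 and -0.13, with 0 of 5 positive in both pairs. In liver their median had the sign of fadsd5 in 1 of the 2 pairs in each reading. Their turned liver median was -0.69 in pair 1 (1 of 5 positive) and 0.09 in pair 2 (3 of 5 positive), beside turned parts of -1.12 and 0.45 for fadsd6 and -0.87 and -0.02 for fadsd5. Their unchanged liver median was 0.13 in pair 1 (4 of 5 positive), where both desaturases were negative (-0.31 for fadsd5 and -0.36 for fadsd6), and -0.61 in pair 2 (1 of 5 positive).

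The 3 probes of the red blood cell gene hba had mixed signs in most pairs and readings. Their medians still had the sign of fadsd5 in both muscle pairs in both readings. In liver they did so in pair 1 in both readings and in pair 2 in the unchanged reading only. A probe of hba was also the named probe closest to fadsd5, so these signs are no separate result either. The unchanged muscle medians of the hba probes were 0.25 (3 of 3 positive) and -0.50 (1 of 3 positive), and the turned ones were -0.30 and -0.16 (1 of 3 positive in both). In liver their turned medians were -0.29 (1 of 3 positive) and 0.21 (3 of 3 positive), and the unchanged ones were -0.39 and -0.70 (1 of 3 positive in both). Of 6 listed fast muscle fibre symbols 2 had probes, the myosin light chain gene mlc-2 and the parvalbumin gene prvb, 5 probes in all. Their turned muscle medians were 0.22 and 0.26 (4 of 5 positive in both pairs), of the other sign than those of fadsd5. The share of all probes with such signs was not counted here either. The unchanged muscle medians were 0.02 (3 of 5 positive) and 0.30 (5 of 5 positive). In liver the turned medians of these fast muscle fibre probes were -0.05 (2 of 5 positive) and 0.14 (2 of the 4 with a value positive). The unchanged liver medians were 0.16 (5 of 5 positive) and 0.01 (3 of 4 positive). The part of the transcripts of these 3 lists in the desaturase values was not tested.

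Of 89 further symbols of lipid metabolism that were looked for, among them other desaturases and elongases, apolipoproteins, lipases and the other PPARs, 0 had a named probe, so the route around these enzymes cannot be described from named probes. Of the 5 adipocyte marker symbols other than pparg 0 had one, nor had any of the 6 leukocyte or the 5 exocrine pancreas symbols.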

How the data were processed

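Small and large trout were compared in liver and in muscle on 8 arrays with 2 colours, 2 pool pairs a tissue. The deposited table holds log2 ratios, read as such from the values. The scanner software, background correction and normalization are not given in the sources used here, and no intensities were used, so dim spots could not be left out. The number of pool pairs limits the precision. Of the rows, 60 control spots were left out. Gene symbols are those of the old platform annotation. None of the 5 accessions, 0 in all, matched the RefSeq annotation (USDA_OmykA_1.1), so no position is given. The symbol pparg is there the symbol of 1 gene and a synonym of 1 gene, and whether these are the same gene was not checked.

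The 2 arrays of a pair were averaged after the 647 array was multiplied by -1, or with no sign changed. Pair values were fitted over all probes with limma 3.58.1 in R 4.3.3, tissue as the group and default empirical Bayes moderation (2 residual and 2.21 prior degrees of freedom). A probe was tested in a tissue with a value on all 4 of its arrays. Tests were two-sided with Benjamini-Hochberg adjustment over all probes and a threshold of 0.05. The fit was also run on simulated data, in which both tissues had the same spread and pool pairs had no spread of their own. That run does not show how the fit behaves where liver varies more than muscle, as here. Nothing says that the pools are separate families or tanks, so p-values measure the spread between these pools. The members, the gene lists and the alternatives (centring, scaling, the filter on missing values, a robust prior, the pool pair as a random block, single tissues, single dye orientations, the replicate number as a block, and leaving out each pool pair) were chosen with earlier results of these data known. The text names all members, the 3 named probes most like each, and listed marker genes with a probe. Same-numbered liver and muscle pairs deviated together with r = 0.067 over probes, and no label pairs them.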

Additional observations from a re-analysis of the deposited data

Results flagged for a closer look

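In 20 sets of 4 arrays (each gene in each tissue and reading) 0 arrays stood apart by Dixon's criterion at the 95% level. The largest gap over the range was 0.788 and belonged to fadsd6 in liver when turned, where the 647 array of pair 2 had 1.95 and the other 3 arrays were negative. Arrays of 1 pair share their RNA, so the 4 values are not independent.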

How the results depend on the processing

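Of 210 values of the 5 genes under alternatives, 177 kept their sign and their side of the threshold, 31 had the other sign and 2 passed it. The last were fadsd5 and fadsd6 in liver without liver replicate 2. The 177 include values whose sign could not change, because some alternatives leave the means of these genes as they are. These are the missing-value filter, the robust prior and the random block (15 values each), turned tissues fitted alone (10) and the turned replicate block (5). Leaving out a pool pair also leaves the mean of the other tissue as it is. Apart from those with no sign changed, all alternatives used turned values, also those from the 647 arrays alone. The unchanged reading was varied only by fitting each tissue alone and by the replicate block. With no sign changed, liver became -0.031 for pparg and 0.0099 for pparb2a and muscle became -0.28 for sr-bi, whether or not each tissue was fitted alone (an alternative added after seeing the data). Liver minus muscle of sr-bi became -0.026 with arrays centred and -0.18 with arrays also scaled, and muscle of pparb2a then became -0.027. From the 555 arrays alone muscle of sr-bi was -0.075. From the 647 arrays alone liver was 0.0045 for fadsd5 and 0.60 for fadsd6, muscle was 0.33 for fadsd6 and -0.26 for pparb2a, and liver minus muscle was 0.27 for fadsd6, 0.11 for pparg, 0.041 for pparb2a and -0.25 for sr-bi. Leaving out 1 pool pair gave ranges in liver of -0.87 to -0.022 for fadsd5, -1.12 to 0.45 for fadsd6, -0.11 to 0.41 for pparg and -0.48 to 0.072 for pparb2a, in muscle of -0.21 to 0.23 for pparb2a, and for liver minus muscle of -0.33 to 0.52 for fadsd5, -0.86 to 0.72 for fadsd6, -0.27 to 0.24 for pparg, -0.49 to 0.063 for pparb2a and -0.065 to 0.16 for sr-bi. The cause was not tested.

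Over all probes, 0 passed in each comparison. Leaving out 1 pool pair gave 0 to 6765 in liver, 0 to 3 in muscle and 0 to 3699 for liver minus muscle, with 0 to 2 of the 5 genes in liver. The highest counts rest on a lone liver pair assumed to vary like muscle. When all 8 arrays entered with a random block per pool pair, 2478 passed in liver, and the correlation limma estimated within pairs was -0.149, so the 2 arrays of a pair counted for more than independent ones. Muscle had 1 after scaling and 3 when fitted alone. With the replicate block 0 passed for liver minus muscle (2139 at an unadjusted p under 0.05, against 3118 without it), and fadsd6 had an adjusted p of 0.961 in limma. The block changed no call of the 5 genes.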
